A study of Mus musculus with 4 samples.

Results

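The 76 mouse genes described here carry symbols that start with Mrpl or Mrps followed by a number. All but Mrps36 encode proteins of the mitochondrial ribosome, and all 76 are called mitochondrial ribosomal protein genes below. They were taken from the probe sets that the array annotation assigns to exactly 1 gene, with the brightest probe set standing for each gene. They make up 76 of the 18193 genes with such a probe set, and 76 of the 12866 genes bright enough to be tested. RNA levels were compared between SFMBT1 knock-down cultures and vector control cultures of C2C12, a mouse myoblast line that can form muscle fibres in culture. The knockdown group held 2 cultures stably transduced with pLKO.1 expressing an shRNA against Sfmbt1, the gene for a chromatin-bound MBT-domain protein. The control group held 2 cultures stably transduced with pLKO.1 expressing a control shRNA, named scrambled in one label and luciferase in another. Both groups were kept in puromycin and serum-rich growth medium, and each culture was measured on 1 Affymetrix array. Separate culture of the replicates is stated in the labels, but separate transduction is not, so the p-values measure the spread between these cultures, which may be technical.

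The mitochondrial ribosome translates the few messenger RNAs of the mitochondrial genome, all of which encode subunits of the respiratory chain and ATP synthase. Its ribosomal RNAs come from mitochondrial DNA, but its proteins are encoded in the nucleus, made in the cytosol and imported. The small subunit decodes the messenger and the large subunit joins the amino acids. Some of the proteins descend from bacterial ribosomal proteins and others are found only in mitochondria. Muscle depends heavily on respiration, and mitochondria are remodelled when myoblasts differentiate.

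Few of the mitochondrial ribosomal protein genes passed the test between knockdown and control myoblasts. Among the 76 genes, 0 were called higher and 2 were called lower, Mrpl28 and Mrpl10, at an adjusted p under 0.05 in limma across all 12866 genes. Of all genes tested, 1.44% were called higher and 1.61% lower, so 2 of 76 lies near the share of all genes, which was 3.05% for both directions together. The median difference of the 76 genes was 0.04 on the log2(signal + 16) scale, knockdown minus control, against 0.015 for all genes tested. At an unadjusted p under 0.05, 9 of the 76 were higher and 2 lower, against 7.89% and 7.14% of all genes. With control replicate 1 left out, the median difference was 0.011 for the 76 genes and -0.039 for all genes tested. Without control replicate 2 these medians were 0.097 and 0.053. Without knockdown replicate 1 they were 0.194 and 0.076, and without knockdown replicate 2 they were -0.084 and -0.04. In RNA from whole cultures, less RNA per cell and fewer cells of a type cannot be told apart.

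**Figure D1:**
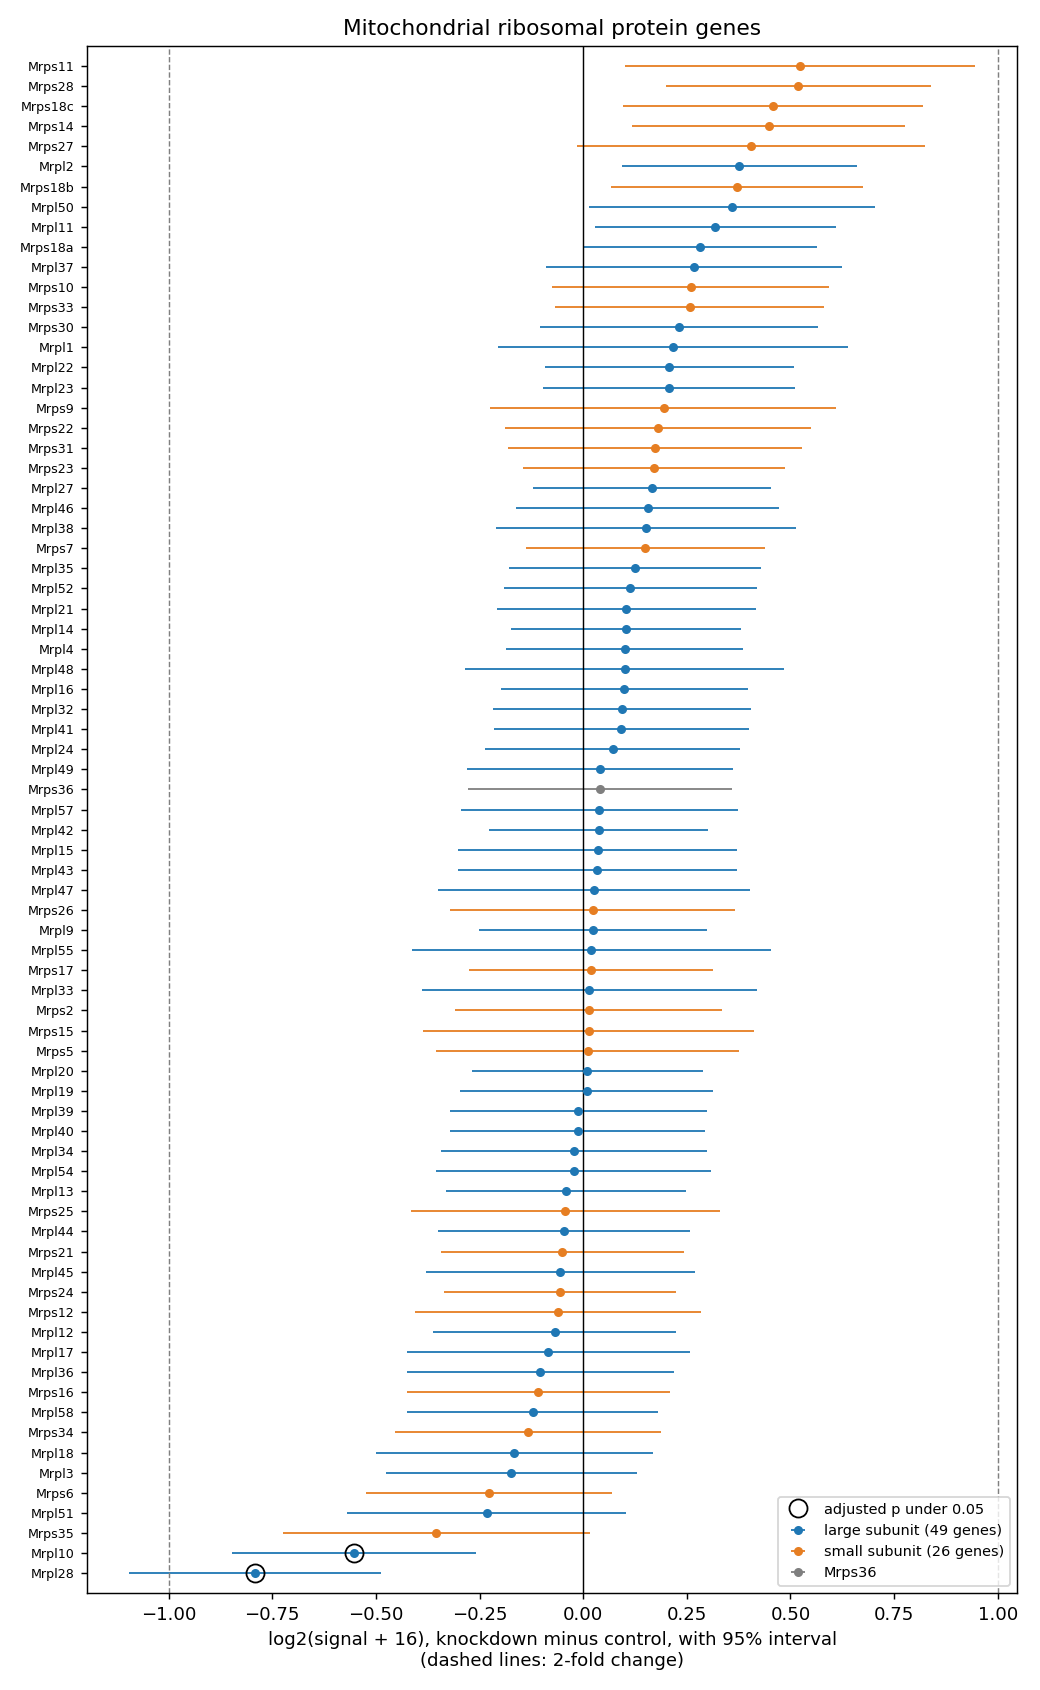
Difference of each of the 76 genes in log2(signal + 16), knockdown minus control, with its 95% interval from the limma fit. Colours give the ribosomal subunit, rings mark the 2 genes with an adjusted p under 0.05 (Mrpl28 and Mrpl10), and the interval of 75 genes lies inside the dashed lines of a 2-fold change either way.

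Under the variance model of the limma fit, the intervals bounded most of these genes. With 2 residual and 13.8 prior degrees of freedom, they rest mostly on a variance trend over all genes. The standard error of a gene's log2 difference ran from 0.125 to 0.204, with a median of 0.15. For 75 of the 76 genes the 95% interval of the difference excluded a 2-fold change in either direction. The remaining gene was Mrpl28, whose interval ran from -1.095 to -0.488. Over all genes tested, 78.4% had an interval that excluded a 2-fold change. The 76 genes were also brighter than the detection limit throughout: the lowest signal of any of them on any array was 288.5, while the background limit, taken from probe sets for bacterial transcripts, reached 69.3 at most. All 76 passed the filter on dim probe sets.

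Mrpl28 encodes a large subunit protein related to bacterial ribosomal protein L28. Its tested probe set, 1416284, had signals of 1119.9 and 1431 in the knockdown cultures, against 2199 and 2208 in the control cultures. Both knockdown arrays lay well below both control arrays. The level averaged 1276 ± 220.1 in the knockdown and 2204 ± 5.9 in the control (SD, n = 2 each), and the log2 difference was -0.79 (SE 0.14, limma adjusted p = 0.0059).

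The other Mrpl28 probe sets did not show this drop. Probe set 1437622 had 1282 and 1982 in the knockdown, against 1396 and 1469 in the control, and the knockdown arrays lay on either side of the control arrays (log2 difference 0.15). Probe set 1456313 had 1606 and 1806.5 in the knockdown, against 1480.3 and 1669 in the control, with groups that overlapped (log2 difference 0.115). The identifiers of both end in _x_at, which marks probe sets that share probes with other transcripts, and that of the tested one does not. When all 3 were averaged, Mrpl28 had a log2 difference of -0.175 and did not pass (adjusted p = 0.6296). Whether the probe sets detect different transcripts was not tested.

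**Figure D2:**
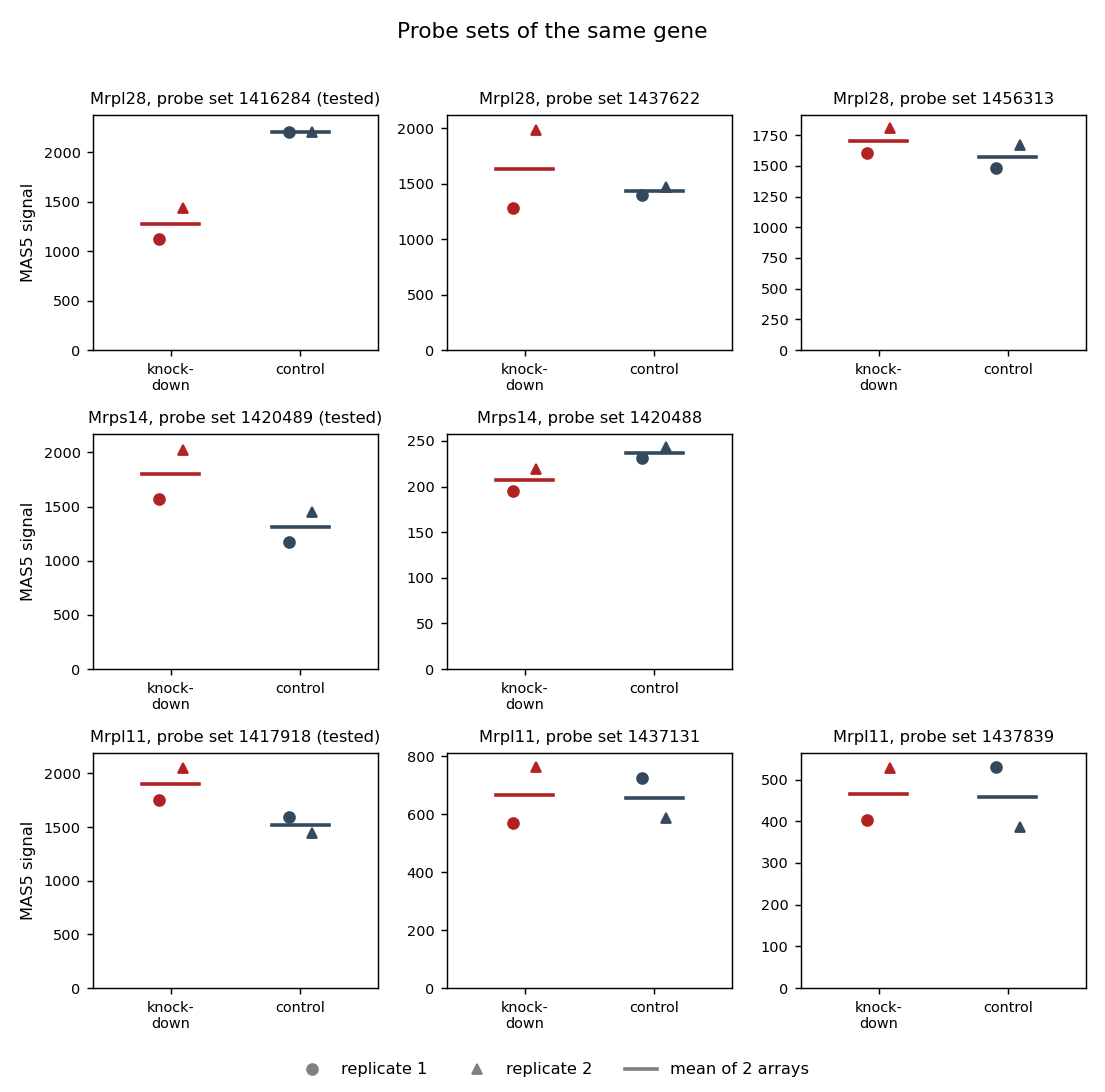
MAS5 signal on each array for the probe sets past the filter of Mrpl28, Mrps14 and Mrpl11, with circles for replicate 1, triangles for replicate 2 and a bar for the mean of the 2 arrays of a group. In Mrpl28 only the tested probe set has both knockdown arrays below both control arrays, and in Mrps14 the probe sets have differences of opposite sign.

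Mrpl10 encodes the homologue of bacterial L10, the protein that anchors the flexible stalk of the large subunit. Its only probe set had 1122 and 1313 in the knockdown cultures, against 1713.5 and 1866 in the control cultures. The groups did not overlap, and the knockdown mean was 68.2% of the control on the fitted scale. The means were 1218 ± 135.4 in the knockdown and 1789.8 ± 107.9 in the control (SD, n = 2 each), with a log2 difference of -0.55 (SE 0.14, limma adjusted p = 0.0409). The call was lost without control replicate 1 (adjusted p = 0.0782), without control replicate 2 (0.2173) and without knockdown replicate 1 (0.1051), while the log2 difference stayed between -0.665 and -0.441 in every alternative tried.

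The stalk neighbours of Mrpl10 are Mrpl12, the homologue of the bacterial stalk protein L7/L12, and Mrpl11, which forms the stalk base. Mrpl12 had 1896 and 2399.5 in the knockdown, against 2202 and 2276 in the control, and the knockdown arrays lay on either side of the control arrays (log2 difference -0.07, SE 0.14). Mrpl11 had 1754 and 2054 in the knockdown, against 1597 and 1446 in the control, with no overlap (log2 difference 0.32, SE 0.14, adjusted p = 0.2800). The further Mrpl11 probe sets past the filter gave 0.02 and 0.03, with groups that overlapped.

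The promoters of the genes for Mrpl28 and Mrpl10 are shown because these were the genes called lower. Each line gives the 250 bases before the annotated start on the + strand of the RefSeq GRCm38.p6 assembly, with the letters that matched a searched motif in capitals. Mrpl28 lies at chr17:26123253-26123502 and Mrpl10 at chr11:97041332-97041581.
Mrpl28: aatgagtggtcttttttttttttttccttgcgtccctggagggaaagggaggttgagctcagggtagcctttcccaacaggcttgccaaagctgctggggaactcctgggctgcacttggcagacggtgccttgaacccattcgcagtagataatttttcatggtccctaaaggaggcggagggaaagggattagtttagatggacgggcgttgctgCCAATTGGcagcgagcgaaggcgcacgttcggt
Mrpl10: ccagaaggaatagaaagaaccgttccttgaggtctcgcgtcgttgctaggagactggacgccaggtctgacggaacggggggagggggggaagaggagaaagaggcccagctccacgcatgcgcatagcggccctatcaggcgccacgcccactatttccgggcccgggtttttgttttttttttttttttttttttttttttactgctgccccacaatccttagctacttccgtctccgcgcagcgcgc

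In Mrpl28 the capitals are 2 overlapping CCAAT boxes on opposite strands, and in Mrpl10 none of the 6 searched motifs matched. Only exact matches to all letters of a motif were counted, so near matches were missed. The motifs were searched on both strands in the same 250 bases of 67 of the 76 genes and of 17491 protein-coding genes with a RefSeq promoter. The ETS motif CCGGAAG, bound by the GABP factor that is known to act on many nuclear genes for mitochondrial proteins, was present in 23.9% of the 67 genes and in 9.12% of all promoters. The palindromic consensus of nuclear respiratory factor NRF1 was present in 4.48% and 1.06%. The YY1 motif AAGATGGCG was present in 2.99% and 0.698%. For the Sp1 motif GGGCGG the shares were 49.3% and 42.7%, for CCAAT 35.8% and 36.3%, and for the E-box CACGTG 7.46% and 6.64%. The 67 promoters had a median GC content of 58.4%, against 55.2% for all promoters, which moves with the shares of GC-rich motifs and whose part in them was not tested. Among the 67 genes, the median log2 difference was 0.028 in the 16 with an ETS motif and 0.041 in the 51 without one. It was 0.27 in the 5 genes with an E-box, 4 of them above 0, and 0.04 in the 62 without. It was 0.21 in the 2 genes with the YY1 motif, 1 of them above 0, and 0.04 in the 65 without. For the other motifs the medians with the motif lay between 0.02 and 0.04 and those without between 0.04 and 0.05, and no difference between such groups was tested.

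Medians are given by ribosomal subunit and by origin, and no difference between subunits or origins was tested. The 49 large subunit genes, which include Mrps30 and Mrps18a because their proteins sit in that subunit, had a median log2 difference of 0.04, with 33 above 0 and both called genes among them (3.05% of all genes were called). The 26 small subunit genes had a median of 0.09, with 18 above 0 and 0 called in either direction. Mrps36, now known to encode a subunit of the 2-oxoglutarate dehydrogenase complex and not of the ribosome, had 1106 and 1412 in the knockdown, against 1166 and 1266 in the control (log2 difference 0.04). The 47 genes with bacterial relatives and the 28 found only in mitochondria had medians of 0.03 and 0.04. Among the genes with bacterial relatives, the 17 of the small subunit had a median of 0.019 and the 30 of the large subunit 0.03. Among those found only in mitochondria, the 9 of the small subunit had 0.17 and the 19 of the large subunit 0.04.

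The small subunit genes with the largest positive differences did not pass the test. Mrps28, the mitochondrial relative of bacterial S1, had 990.4 and 1186.5 in the knockdown cultures, against 769 and 735 in the control cultures. The groups did not overlap (log2 difference 0.52, SE 0.15, adjusted p = 0.0829). Mrps11, a protein of the small subunit platform, had 638 and 1017 in the knockdown, against 501.5 and 617 in the control. Its groups were separate but the knockdown arrays were far apart (log2 difference 0.52, SE 0.20, adjusted p = 0.2097). Mrps14, a protein of the small subunit head, had 1571 and 2023 in the knockdown, against 1174 and 1446 in the control (log2 difference 0.45, SE 0.155, adjusted p = 0.1611). A second Mrps14 probe set, which was dimmer, went the other way, with 195 and 219.7 in the knockdown, against 231 and 243 in the control (log2 difference -0.18).

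Mammals have 3 mitochondrial relatives of bacterial S18, and all of them had higher signals on both knockdown arrays without passing the test. Mrps18c had 1048 and 1394 in the knockdown, against 767.5 and 998.5 in the control (log2 difference 0.46, SE 0.17, adjusted p = 0.1978). Mrps18b had 1193 and 1417 in the knockdown, against 1009 and 995 in the control (log2 difference 0.37, SE 0.14, adjusted p = 0.2198). Mrps18a, whose protein belongs to the large subunit, had 1577 and 1651 in the knockdown, against 1296 and 1353 in the control (log2 difference 0.28, SE 0.13, adjusted p = 0.3296). In each of these genes the lower knockdown array stood above the higher control array, as it did in 23.0% of all genes tested.

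Among the other small subunit genes, Mrps27, a protein with pentatricopeptide repeats found only in mitochondria, had 506 and 707 in the knockdown, against 384 and 522 in the control, with overlapping groups (log2 difference 0.405, adjusted p = 0.3556). Mrps35, also without a bacterial relative, had 495 and 669 in the knockdown, against 689 and 795 in the control. It had the most negative difference among small subunit genes, with separate groups, but did not pass (log2 difference -0.35, SE 0.17, adjusted p = 0.3615). Mrps33, Mrps10 and Mrps23 differed by 0.26, 0.26 and 0.17 on the log2 scale and Mrps6 by -0.23, with adjusted p from 0.4721 to 0.6602.

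**Figure D3:**
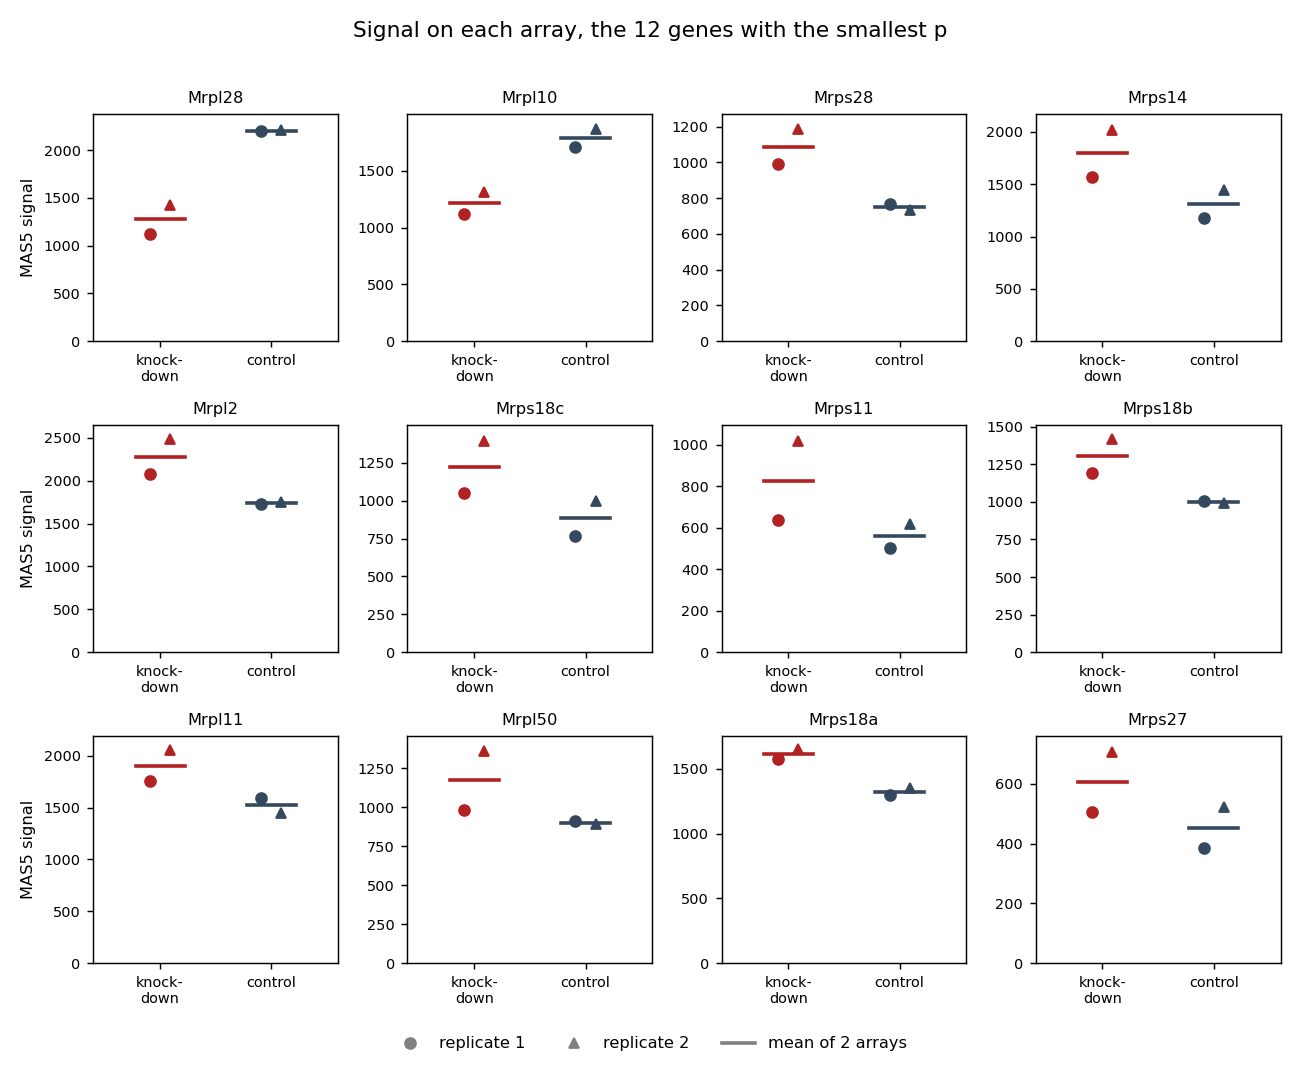
MAS5 signal on each array for the 12 mitochondrial ribosomal protein genes with the smallest p, each panel with its own axis from 0, circles for replicate 1, triangles for replicate 2 and bars for the mean of the 2 arrays. Mrpl28 and Mrpl10 are lower on both knockdown arrays, and knockdown replicate 2 stands above knockdown replicate 1 in all 12 panels.

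In the large subunit, the genes next by p were also on the higher side. Mrpl2, whose bacterial relative L2 lies close to the peptidyl transferase centre, had 2074 and 2485 in the knockdown cultures, against 1733 and 1756.5 in the control cultures. The groups did not overlap (log2 difference 0.38, SE 0.13, adjusted p = 0.1733). Mrpl50, found only in mitochondria, had 983 and 1361 in the knockdown, against 908 and 889 in the control (log2 difference 0.36, SE 0.16, adjusted p = 0.3086), and its second probe set gave 0.32. Mrpl37, Mrpl22, Mrps30, Mrpl23 and Mrpl27 had log2 differences between 0.17 and 0.27, and Mrpl51 and Mrpl3 had -0.23 and -0.17. None of these 7 passed, with adjusted p from 0.4990 to 0.6348. Mrpl58, a peptidyl-tRNA hydrolase that frees stalled mitochondrial ribosomes and is itself part of the large subunit, had 1129.6 and 1183 in the knockdown, against 1157 and 1370.2 in the control (log2 difference -0.12).

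The 52 remaining genes, from the 25th by p onward, had adjusted p of 0.6781 or more, and 60 of the 76 genes differed by less than 0.25 on the log2 scale. Over all genes tested that share was 61.4%. The difference was above 0 in 52 of the 76 genes, against 52.2% of all genes tested, but in 66 without knockdown replicate 1 and in 28 without knockdown replicate 2. Both knockdown arrays stood above both control arrays in 17 of the 76 genes and below them in 4, whereas these shares were 23.0% and 21.5% over all genes. The spread of differences was narrower than over all genes, with quartiles of -0.04 and 0.175 against -0.19 and 0.19, and the 76 genes are all well above background while many of the genes tested are not.

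Over the 76 genes, the median difference between the knockdown cultures was larger than that between the groups, though not for Mrpl28 and Mrpl10. Knockdown replicate 2 had a higher signal than knockdown replicate 1 in 73 of the 76 genes, with a median log2 difference of 0.29, against 0.125 for all genes tested. Control replicate 2 exceeded control replicate 1 in 60 of the 76, with a median of 0.08, against 0.10 for all genes. Knockdown replicate 2 was the highest of the 4 arrays for 59 of the 76 genes, which was so for 39.4% of all genes, and knockdown replicate 1 was the lowest for 40 of the 76, against 34.4% of all genes. The cause was not tested. Knockdown replicate 1 also had the highest background, 69.3 against 42.9 on the other knockdown array and 49.1 and 53.2 on the control arrays, and the lowest share of probe sets above background, 56.2% against 67.6%, 65.0% and 64.3%.

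**Figure D4:**
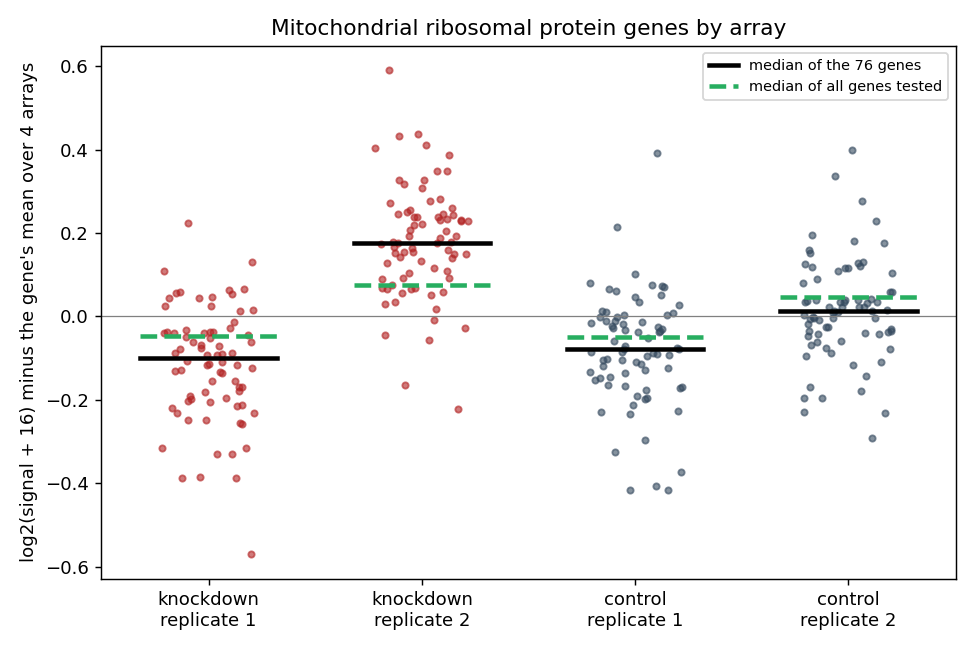
Deviation of each of the 76 genes on each array from that gene's mean over the 4 arrays, in log2(signal + 16), with the median of the 76 genes (black) and of all genes tested (green, dashed). The 76 genes have medians of -0.10 and 0.18 on the knockdown arrays and -0.08 and 0.01 on the control arrays, and all genes have -0.05, 0.08, -0.05 and 0.05.

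The count of calls changed when a knockdown array was left out. In such fits the lone knockdown array is assumed to vary like the other arrays, so the spread comes from the control pair and the variance prior. Without knockdown replicate 1, 7 of the 76 genes were higher and 1 lower (Mrpl28), with 5.22% of all genes called, and the median difference was 0.19. The 7 were Mrps14, Mrps18c, Mrps11, Mrps28, Mrps27, Mrpl2 and Mrpl50. Without knockdown replicate 2, 0 were higher and 3 lower (Mrpl28, Mrpl10 and Mrpl51), with 4.8% of all genes called, and the median was -0.08. Mrpl51 had 2239.6 and 3255 in the knockdown, against 2936 and 3437 in the control, and its difference was -0.50 without knockdown replicate 2 and 0.035 without knockdown replicate 1. Mrpl28 was lower in every one of these fits, at -0.62 and -0.97.

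Signs were compared between probe sets of a gene, though many differences lay close to 0 and no difference between probe sets was tested. The 76 genes had 156 probe sets, and of the 80 not used in the test 63 passed the filter, in 39 genes. The difference had the same sign as that of the tested probe set in 32 of these 63. With a test of all probe sets that passed the filter, 1 of 139 was called, the Mrpl28 probe set 1416284 (adjusted p = 0.0176). Of all 22893 probe sets in that test, 2.39% were called. Mrpl10 then had an adjusted p of 0.0614. When the probe sets of each gene were averaged, 0 of the 76 genes were called, against 1.69% of all genes. An unadjusted p under 0.05 was reached by 8 of the 76, against 1857 of all 12866 genes. The median difference of the 76 was 0.05.

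A further 4 probe sets were assigned to a member symbol together with another gene and were left out of the 76. The brighter of the Mrpl30 probe sets, shared with a gene model, had 2049 and 2771 in the knockdown, against 2082 and 2235 in the control. The probe set shared by Mrpl53 and Ccdc142 had 1431 and 1958 in the knockdown, against 1158 and 1248 in the control, so both knockdown arrays were higher. That signal cannot be assigned to either gene.

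Some of these genes share a start region with another gene, and the share of such genes over all promoters was not counted. For 23 of the 67 with a RefSeq promoter, the start of another gene on the opposite strand lay within 1000 bases upstream. Of these partners 22 were tested and 0 were called, against 3.05% of all genes tested. The difference was above 0 in 12 of the 22, against 52.2% of all genes. In 14 it had the sign of the ribosomal protein gene. Mrps11 and Mrpl46 are partners of each other, with 42 bases between their starts, so this pair enters these counts in both directions. Mrpl46 had 821.5 and 837 in the knockdown, against 705 and 783 in the control, so the arrays of both genes were higher in the knockdown, but neither passed (log2 difference 0.16 for Mrpl46 and 0.52 for Mrps11). Mrpl14 differed by 0.10 and its partner Tmem63b by 0.51 (adjusted p = 0.1123), and Mrps12 by -0.06 and its partner Sars2, which charges mitochondrial serine tRNA, by -0.51 (adjusted p = 0.2807).

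In 5 lists of other genes of mitochondrial translation and biogenesis, Gfm2 was the gene that passed the test, while several others had intervals that excluded 0 without passing after adjustment. Gfm2, which encodes the elongation factor G that splits mitochondrial ribosomes after termination, had 224 and 171 in the knockdown cultures, against 479 and 490.4 in the control cultures. The groups lay far apart (197.5 ± 37.5 against 485 ± 7.9, SD, n = 2 each; log2 difference -1.24, SE 0.20, adjusted p = 0.0025). Its second probe set had 233 and 247 in the knockdown, against 254 and 309 in the control, a smaller difference of -0.21. The average of both gave -0.73 and did not pass (adjusted p = 0.0651).

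The difference was above 0 in 9 of 15 tested translation factors. Gfm2 was the 1 called lower and 0 were called higher, against 1.61% and 1.44% of all genes tested (3.05% together). The paralogue Gfm1, which moves the ribosome along the messenger, had 1519 and 1484 in the knockdown, against 1209.9 and 1147 in the control, and did not pass (log2 difference 0.35, adjusted p = 0.2206). Lrpprc, a protein that stabilises mitochondrial messengers, differed by 0.425 (adjusted p = 0.1475, but 0.0439 without knockdown replicate 1 and 0.0451 with quantile normalization). Among 24 genes of mitoribosome assembly, 0 were called, and the smallest p belonged to the ribosomal RNA methyltransferase gene Mrm1 (log2 difference 0.77, SE 0.28, adjusted p = 0.1876, and 0.0447 without control replicate 2) and the RNA-binding protein gene Fastkd2 (0.51, adjusted p = 0.2269).

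Of 4 tested proteins of the mitochondrial ribosome that bear other names, 0 were called. Beside this count and those of the lists that follow, 3.05% of all genes tested were called. Gadd45gip1, a large subunit protein also known as Crif1, had 729 and 988 in the knockdown, against 1120.3 and 1156 in the control, with separate groups (log2 difference -0.42, adjusted p = 0.2151, and 0.0138 without knockdown replicate 2). Dap3, a small subunit protein, had 1261 and 1324.5 in the knockdown, against 1344 and 1655 in the control (log2 difference -0.205, adjusted p = 0.5571). Among 20 genes that charge mitochondrial tRNAs 0 were called, with Gatc at -0.56 (adjusted p = 0.0862, but 0.0332 under the upper 40% filter and 0.0476 when knockdown replicate 1 was left out) and Kars, the lysyl-tRNA synthetase of both cytosol and mitochondria, at 0.40 (adjusted p = 0.1251, but 0.0326 with median centring and 0.0354 with quantile normalization). Among 21 genes of mitochondrial DNA, transcription and biogenesis 0 were called. Gabpa, the DNA-binding subunit of GABP, had 614 and 693 in the knockdown, against 868 and 947 in the control, without overlap (log2 difference -0.465, adjusted p = 0.1342), and the coactivator gene Pprc1 differed by 0.41 (adjusted p = 0.2666).

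**Figure D5:**
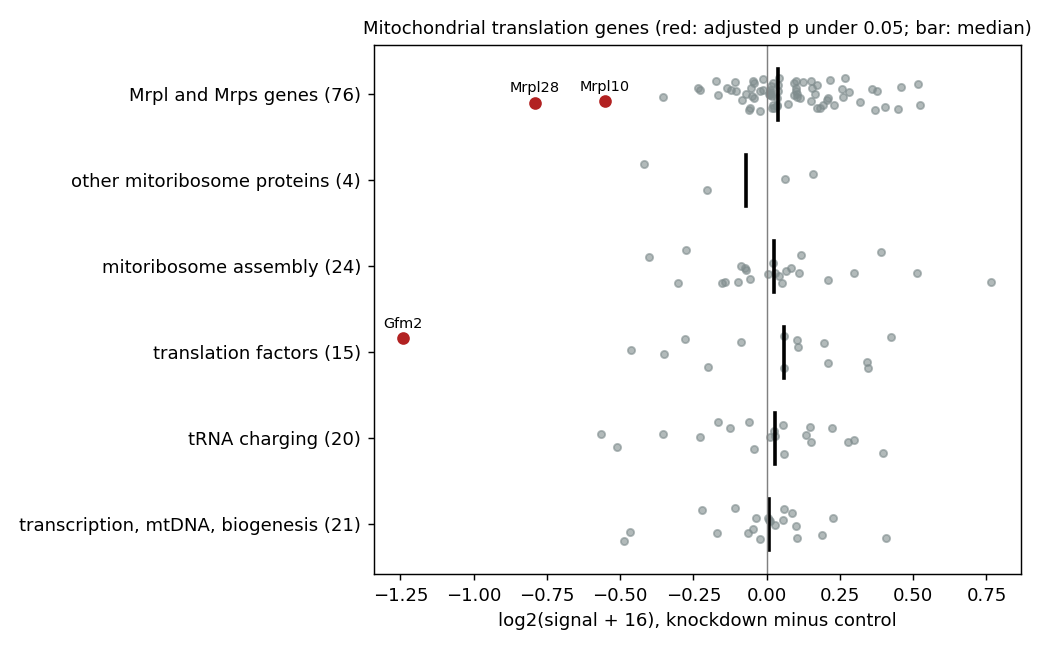
Difference of each tested gene in log2(signal + 16), knockdown minus control, for the 76 mitochondrial ribosomal protein genes and for 5 lists of other genes of mitochondrial translation, with the number of genes in brackets and a bar at each median. Mrpl28, Mrpl10 and Gfm2, all lower in the knockdown, are the genes with an adjusted p under 0.05.

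The labels were checked against the arrays. All 5 probe sets of Sfmbt1 were lower on both knockdown arrays. In the 3 that were above background on all arrays the knockdown mean stood between 43.7% and 69.2% of the control mean. The 7 myoblast markers were above background on every array, with summed signals of 14378 and 15048 in the knockdown, against 14171 and 15873 in the control. Of these, Msc was called higher (log2 difference 1.54, adjusted p = 9.15e-04) and the other 6 did not pass. Of 10 markers of differentiated muscle 9 were called higher and 0 lower, with summed signals of 8751 and 9311 in the knockdown, against 2291 and 1895 in the control. Their part in the values above was not tested. Of the markers of other cell types, Adipoq and Lep (adipocyte), Pecam1 (endothelium) and Ptprc (macrophage) lay within background on all 4 arrays. However, 3 of 4 macrophage markers and 1 of 4 endothelial markers were above background on every array. Csf1r (macrophage) had 335 and 418 in the knockdown, against 362 and 439 in the control, with groups that overlapped. Cd68 (macrophage) and Kdr (endothelium) were lower on both knockdown arrays, and Fabp4 (adipocyte) was higher. Their log2 differences were -0.57, -0.42 and 0.75, and none of them passed (adjusted p from 0.3892 to 0.4635). The other tested endothelial marker, Cdh5, went the opposite way to Kdr. It had 87.7 and 84.7 in the knockdown, against 75.8 and 38.6 in the control (log2 difference 0.53, limma adjusted p = 0.6621). Adgre1 (macrophage) differed by 0.08, with groups that overlapped. The 4 macrophage markers summed to 535 and 737 in the knockdown, against 664 and 755 in the control, and the 4 endothelial markers to 326.5 and 356 in the knockdown, against 401 and 385 in the control. The 3 adipocyte markers summed to 165 and 159.5 in the knockdown, against 132 and 109.7 in the control. The part of these cell types in the values above was not tested. The 5 fibroblast markers, of which 4 were above background on every array, summed to 15396 and 16066 in the knockdown, against 13814 and 13459 in the control. Most of this sum was Col3a1, with 14871 and 15624 in the knockdown, against 13414 and 12970.5 in the control. Col3a1 did not pass (log2 difference 0.21, limma adjusted p = 0.3928). Dcn, Thy1 and Pdgfra had groups that overlapped, and Lum was below the filter.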

How the data were processed

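RNA from 4 cultures was hybridised to 1 Affymetrix array each. The authors deposited 1 intensity per probe set on a linear scale. The submitters' processing notes name MAS5 and GCOS for this step. The scaling between arrays was not given in the sources used here, and no rescaling was applied. Of 45101 probe sets, 34945 had 1 gene, 932 several and 9160 none in the platform annotation, and 64 were controls. Of the 34945, 34741 matched a RefSeq gene identifier (GRCm38.p6) and 0 symbols changed.

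Signals were transformed as log2(signal + 16), which understates changes of dim genes. The brightest probe set by mean over the 4 arrays stood for a gene, and probe sets in the upper 60% of mean signal (at least 57.3) were kept. Differences were tested with limma 3.58.1 (lmFit, eBayes with a variance trend) in R 4.3.3, with 2 residual and 13.8 prior degrees of freedom, and p-values were adjusted by Benjamini-Hochberg over 12866 genes. Intervals of 95% use the same fit. An exact permutation test of 2 against 2 arrays cannot go below p = 0.333. An array's background was the level that 95% of its 27 probe sets for bacterial control transcripts stayed under. The steps were tested on 20 simulated tables with 2 arrays per group. Changes of 1 and 2 on the log2 scale were called in 65.2% and 88.4% of the changed genes. Among the called genes, 6.27% had not been changed, at an adjusted p under 0.05. The number of arrays limits the precision.

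The genes and lists were chosen with earlier results of these data known. Of 124 symbols in the lists of other mitochondrial genes and markers, 118 were matched on the array. The text names the called genes, the 24 ribosomal protein genes with the smallest p and, per list, the called genes or the 2 smallest p. Mrpl12, Mrpl14, Mrpl46, Mrpl58, Mrps12, Mrps36, Lrpprc, Gfm1, Tmem63b and Sars2 were added after their values were seen. So were the markers Msc, Csf1r, Cd68, Kdr, Fabp4, Cdh5, Adgre1, Col3a1, Dcn, Thy1, Pdgfra and Lum. Alternatives were another pseudocount, filter, scaling, variance model and probe set rule, the replicate number as a block, and each array left out. No set tests were run.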

Additional observations from a re-analysis of the deposited data

How the results depend on the processing

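The 2 calls among the 76 genes held with pseudocounts of 1 and 64, with median centring, with quantile normalization, with the upper 40% filter and without the _s_at, _x_at and _a_at probe sets (62 of the 76 genes then tested). Median centring, quantile normalization and the upper 40% filter each added Mrps28. The count was 0 without the filter on dim probe sets (9 at an unadjusted p under 0.05), 0 without the variance trend (3 at an unadjusted p under 0.05), 0 with the mean of all probe sets of a gene (chosen after seeing the data) and 1 with every probe set. Leaving out 1 array, with the lone sample assumed to vary like the others, gave 1 to 8. Over all genes tested, the difference between replicates 1 and 2 in the knockdown had a correlation of 0.010 with that in the control. A correlation cannot show a shift shared by all genes. Replicate 2 exceeded replicate 1 by a median log2 difference of 0.125 in the knockdown and 0.098 in the control. Whether the replicate numbers pair the samples was therefore not settled. With the replicate number as a block 4 of the 76 were called, Mrps14 and Mrps18c in addition. Over all genes the count was 392, and it was 55 without the filter, 607 with the upper 40% filter, 0 without the variance trend (1501 at an unadjusted p under 0.05), 217 with the mean of all probe sets and 311 to 671 with 1 array left out. With the replicate block it was 546. In the lists of other mitochondrial genes the count of 1 became 0 without the filter, without the variance trend and with the mean of probe sets, 2 with the upper 40% filter, with median centring and with the replicate block (Gfm2 and Kars in both), 3 with quantile normalization, and 1 to 4 with 1 array left out. The median difference of the 76 genes lay between -0.084 and 0.194 with 1 array left out, and between 0.037 and 0.057 under every other alternative. Among the 24 genes with the smallest p, the direction changed for Mrpl51 with 1 array left out (-0.501 to 0.035, the highest without knockdown replicate 1) and for Mrps23 with the mean of all probe sets (-0.012), and the cause was not tested. Alternatives for the lists of other genes were added after seeing the data.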

Other observations

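Among the 15 tested translation factors, Tufm, which delivers charged tRNAs to the mitochondrial ribosome, was chosen for mention after its values were seen. It had signals of 255 and 1036.7 in the knockdown cultures, against 468 and 853 in the control cultures. The control arrays lay between the knockdown arrays, and the log2 difference of -0.28 (SE 0.41) did not pass (limma adjusted p = 0.8225). Its difference was 0.70 without knockdown replicate 1 (adjusted p = 0.0096) and -1.26 without knockdown replicate 2 (adjusted p = 7.73e-07). In each of these fits the knockdown is 1 array, so the p rests on the spread of the control pair and the variance prior.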
